A study of Mus musculus with 2 samples.

Results

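The genes described here are 9 mouse genes of antigen presentation by classical major histocompatibility complex (MHC) class I molecules: H2-K1, H2-D1, B2m, Tap1, Tap2, Tapbp, Psmb8, Psmb9 and Nlrc5. They were taken by symbol from the single-cell gene table, and all 9 were found among its 31053 rows. They are described in hepatocytes ordered by the level of Nras, and across the other cell types of the same sort. The livers came from 3 BL6 mice, stated in the study's methods to be C57BL/6 females, on day 6 after hydrodynamic tail-vein injection (HDTVi), which forces plasmid into a share of hepatocytes. The transposon carried NRAS(G12V), an oncogenic RAS, or NRAS(G12V/D38A), the same protein with a second change in the effector loop that served as the non-oncogenic control. Both constructs were joined to the yellow fluorescent protein mVenus, were driven by the ubiquitous CAGGS promoter and were delivered with the SB13 transposase, so every mouse was injected and carried a transposon. Each liver was dissociated and stained with its own hashtag antibody, mVenus-positive cells were sorted, and the 3 livers were pooled for droplet 3′ sequencing.

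The deposited list of hashtags names hashtag 1 as the G12V/D38A liver and hashtags 2 and 3 as the G12V livers. The study's methods name hashtag 3 as the G12V/D38A liver and hashtags 1 and 2 as G12V. The livers are therefore called mouse 1, mouse 2 and mouse 3 after their hashtags. With 1 control mouse under either reading, no test of G12V against G12V/D38A was made.

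MHC class I molecules show peptides from inside the cell to CD8 T cells. Peptides are cut by the proteasome, and in inflamed tissue the catalytic subunits Psmb8 and Psmb9 replace constitutive ones to form the immunoproteasome. The Tap1 and Tap2 pair pumps peptides into the endoplasmic reticulum, where the chaperone tapasin (Tapbp) holds the heavy chain, H2-K1 or H2-D1, with its light chain, beta-2 microglobulin (B2m), until a peptide binds. Nlrc5 is the transactivator of this gene set, and interferon gamma raises most of it. Hepatocytes are known for low class I at rest.

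Of the 9 genes, 7 lie in the MHC on chromosome 17 (GENCODE M21, GRCm38, which is mm10). Tapbp is at chr17:33915899-33929292 on the plus strand and H2-K1 at chr17:33996017-34000347 on the minus strand. Psmb9 (chr17:34181987-34187764, minus), Tap1 (chr17:34187553-34197225, plus), Psmb8 (chr17:34197721-34201454, plus) and Tap2 (chr17:34203527-34216321, plus) form a cluster, and H2-D1 is at chr17:35262730-35267499, plus. B2m is at chr2:122147686-122153083, plus, and Nlrc5 at chr8:94434356-94527272, plus. Because 3′ reads of near-identical heavy chains could be shared, the last 500 bases of the longest coding transcript of each gene were cut into 410 windows of 91 bases, and 0 of them occurred in a transcript of another gene for any of the 9.

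Of the 4 pairs of class I genes compared across single hepatocytes, the heavy chains H2-K1 and H2-D1 had the highest correlation, so their upstream sequence is shown. The 200 bases before the RefSeq start of H2-K1 (GRCm38.p6, chr17:34000348-34000547, minus strand) are printed in lower case. Capitals mark matches on either strand to a κB motif (GGGATTCCC), an interferon regulatory factor motif (GAANNGAAA, here as its reverse complement) and CCAAT.
H2-K1: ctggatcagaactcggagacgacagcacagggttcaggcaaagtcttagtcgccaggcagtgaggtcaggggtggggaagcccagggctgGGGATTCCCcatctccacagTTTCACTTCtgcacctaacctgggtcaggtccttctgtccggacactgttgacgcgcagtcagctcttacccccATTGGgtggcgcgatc
The stretch of 29 bases from the κB to the interferon motif was found in H2-D1 as well (chr17:35262924-35262952, plus strand) and is set beside that of H2-K1 (chr17:34000429-34000457, minus strand).
H2-K1 core: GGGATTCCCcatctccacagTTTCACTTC
H2-D1 core: GGGATTCCCcatctcctcagTTTCACTTC
These cores share 28 of 29 bases, the difference being A17T counted from 1 at the 5′ end with H2-K1 first. Both motifs together were found in 6 of 27025 promoters (0.0222%), those of Cd209e, H2-D1, H2-K1, H2-Q6, H2-Q7 and Hyal2. The H2 genes among these are related class I heavy chains, and a link of the motifs with the levels or the correlation was not tested. The κB letters alone were in 0.311% of promoters, the interferon letters in 6.34% and CCAAT in 34.5%. Promoter entries matched 7 of the 9 genes, all but Tap2 and Nlrc5. Among them Psmb8 held TTCNNNGAA, a STAT motif found in 7.18% of promoters, 97 bases before its start, and the starts of Tap1 and Psmb9 faced away from each other across 225 bases.

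The gene table held 13151 barcodes, of which 13141 were also in the hashtag table, and 10219 passed the limits of at least 500 genes, at least 1000 UMIs (unique molecules counted) and under 20% mitochondrial UMIs. The hepatocyte rule, Alb, Apoa1, Apoa2, Ttr and Fgb at 1% or more of UMIs, took 8509 of these. Of them, 385 also met the marker gate of another type and were set aside, which left 8124. Genes outside the rule bore on the label: Serpina1c, an abundant secreted hepatocyte product, was seen in 99.2% of them and Ass1, a urea cycle enzyme, in 87.4%, against 20.2% for Cyp3a11, a drug-metabolising enzyme. The sort also held 1331 barcodes gated as other types and 379 in no gate. No hashtag could be called in 74.8% of hepatocytes, so comparisons over mice rest on the remainder, with barcodes that carried more than 1 hashtag left out. Of hepatocytes with at least 5000 UMIs, 267 were called for mouse 1 (median 32669 UMIs), 1208 for mouse 2 (43748.5) and 61 for mouse 3 (7745). Levels are given as CPM, the UMIs of a gene per 1000000 UMIs in a sum of cells, with the Nras, mVenus and hashtag rows left out. Intervals in parentheses are exact 95% Poisson intervals and cover counting error only.

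Hepatocytes were split by their Nras level, from a row that also collects the construct: baseline under 200 CPM, low from 200 to 1000, intermediate from 1000 to 3000, and high from 3000 up. Mouse 1 had 177, 43, 24 and 23 cells in these bins and mouse 2 had 830, 212, 92 and 74. Mouse 3 had 46 baseline and 12 low cells, 0 intermediate cells and 3 high cells, too few for a sum, so the intermediate and high bins rest on mice 1 and 2. Under the deposited list mouse 1 carries the non-oncogenic construct, so its Nras bins would not be a dose of oncogenic RAS. Under the methods this holds for mouse 3. The fits over bins take the mice together, so they compare levels of the Nras row and not doses of oncogenic RAS alone. mVenus was at 8.55 CPM in baseline and 379 in high cells of mouse 1, and at 5.50 and 330.1 in mouse 2.

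Of the 9 class I genes, 0 differed between high and baseline Nras at an adjusted p under 0.05 (edgeR quasi-likelihood test with the mouse as a block), a contrast in which 23.3% of 10218 genes did, 10.8% higher and 12.5% lower. DESeq2 called 0 of the 9 as well, and 2 of them, Tap2 and Psmb9, had an unadjusted p under 0.05 in edgeR. The median log2 change of the 9 was -0.10, against -0.02 over all genes tested.

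H2-K1, a classical heavy chain, was at 1074, 1347, 1154 and 1175 CPM from baseline to high in mouse 1 and at 911, 934, 849.6 and 881 in mouse 2. In mouse 3 it was at 677 (611 to 748) in baseline and 356 (240.2 to 508) in low cells. Mouse 1 was the highest and mouse 3 the lowest in both bins that all 3 mice share, and within mice 1 and 2 the levels followed no order of the bins. The fitted change from baseline to high was -0.13 ± 0.25 (log2, SE; adjusted p = 0.784, edgeR). Mouse 3 has no high sum but enters this fit through its baseline and low cells, and without it the change was 0.04 ± 0.11. H2-D1, the other classical heavy chain of this strain, read 734, 1016, 801 and 833 CPM in mouse 1, 576, 623, 590.4 and 605 in mouse 2, and 549 and 569.6 in the baseline and low cells of mouse 3. As for H2-K1, the low bin of mouse 1 stood highest. Its fitted change was 0.06 ± 0.18 (adjusted p = 0.887, edgeR).

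B2m, the light chain that class I heavy chains need to reach the surface, was at 2918, 3814, 3773 and 3908 CPM in mouse 1 and at 2579, 2869, 2909.8 and 2829.6 in mouse 2. Mouse 3 gave 2174 (2055 to 2298) in baseline and 2266 (1956 to 2612) in low cells. In mice 1 and 2 every bin above baseline was higher than baseline, and those bins lay close to each other. The fitted change was 0.19 ± 0.20 (adjusted p = 0.555, edgeR), with a 95% interval from 0.855 to 1.53-fold. It passed the threshold among hepatocytes of at least 10000 UMIs (0.27, adjusted p = 0.0440, edgeR) and of at least 20000 (0.25, adjusted p = 0.0290, edgeR). Without mouse 3, which has no high sum, it was 0.28 (adjusted p = 0.0559, edgeR). It was -0.01 without mouse 1 and 0.29 without mouse 2, each of which leaves 1 sum in the high bin.

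Tap1, a subunit of the peptide transporter, was at 22.5, 25.8, 18.8 and 18.0 CPM in mouse 1 and at 12.4, 12.3, 17.8 and 14.8 in mouse 2. Tap2, its partner, was at 23.1, 19.1, 18.8 and 17.1 in mouse 1 and at 17.0, 15.4, 18.3 and 12.2 in mouse 2. The high bins hold few molecules, 21 and 63 UMIs for Tap1 and 20 and 52 for Tap2 in mice 1 and 2. Tap1 changed in the fit by 0.07 ± 0.25 (adjusted p = 0.894, edgeR) and Tap2 by -0.47 ± 0.20 (adjusted p = 0.108, edgeR), neither past the threshold. Tapbp, the loading chaperone, was at 54.5, 73.1, 55.1 and 52.3 CPM in mouse 1 and at 54.6, 48.3, 46.2 and 48.5 in mouse 2, and its fitted value was -0.10 ± 0.17 (adjusted p = 0.741, edgeR).

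The immunoproteasome genes read lower in the high than in the baseline bin of both mice, without passing the test. Psmb8 was at 179.8 (168 to 192), 161, 130.4 and 139.7 (119 to 163) CPM in mouse 1 and at 100.4 (97.0 to 104), 82.3, 77.7 and 82.4 (74.0 to 91.5) in mouse 2. Baseline was the highest bin of mice 1 and 2, while mouse 3 was at 142 (112 to 176) in baseline and 189.9 (109 to 308) in low cells, which overlap. Its fitted value was -0.29 ± 0.15 (adjusted p = 0.192, edgeR). Psmb9 was at 87.9 (79.9 to 96.5), 63.1, 45.4 and 56.6 (43.8 to 72.0) CPM in mouse 1 and at 31.9 (30.0 to 33.9), 23.01, 31.8 and 25.8 (21.2 to 31.0) in mouse 2. Mouse 2 thus differed from mouse 1 in its intermediate bin, which was level with baseline, and mouse 3 was at 64.7 (45.6 to 89.2) and 35.6 (7.34 to 104), the latter from 3 UMIs. The fitted value of Psmb9 was -0.47 ± 0.20 (adjusted p = 0.108, edgeR), with a 95% interval from 0.539 to 0.968-fold.

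The calls for these 2 genes depended on the setting. Psmb8 passed with quartiles of Nras in place of fixed bins (-0.62, adjusted p = 0.0265), with a fixed hashtag rule (-0.53, adjusted p = 0.0353), with the 385 barcodes of a second gate kept (-0.41, adjusted p = 0.0406) and in a split by mVenus (-0.48, adjusted p = 0.0444, all edgeR). Psmb9 passed with quartiles (-0.76, adjusted p = 0.0153), with the fixed hashtag rule (-0.58, adjusted p = 0.0405), with the second-gate barcodes kept (-0.65, adjusted p = 0.0499) and with no filter on low counts (-0.50, adjusted p = 0.0377, all edgeR). In hepatocytes of at least 20000 UMIs neither passed, at -0.21 for Psmb8 (adjusted p = 0.220) and -0.31 for Psmb9 (adjusted p = 0.222, edgeR).

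Nlrc5, the transactivator of class I genes, was counted rarely. It gave 5.37 (3.54 to 7.81), 5.26, 8.43 and 6.00 (2.41 to 12.4) CPM in mouse 1 and 4.30 (3.61 to 5.07), 4.60, 4.12 and 3.75 (2.14 to 6.08) in mouse 2, from 7 and 16 UMIs in the high bins. Its fitted value of -0.07 ± 0.37 (adjusted p = 0.942, edgeR) has an interval from 0.550 to 1.65-fold, so a difference within those bounds was not detectable at this depth.

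**Figure D1:**
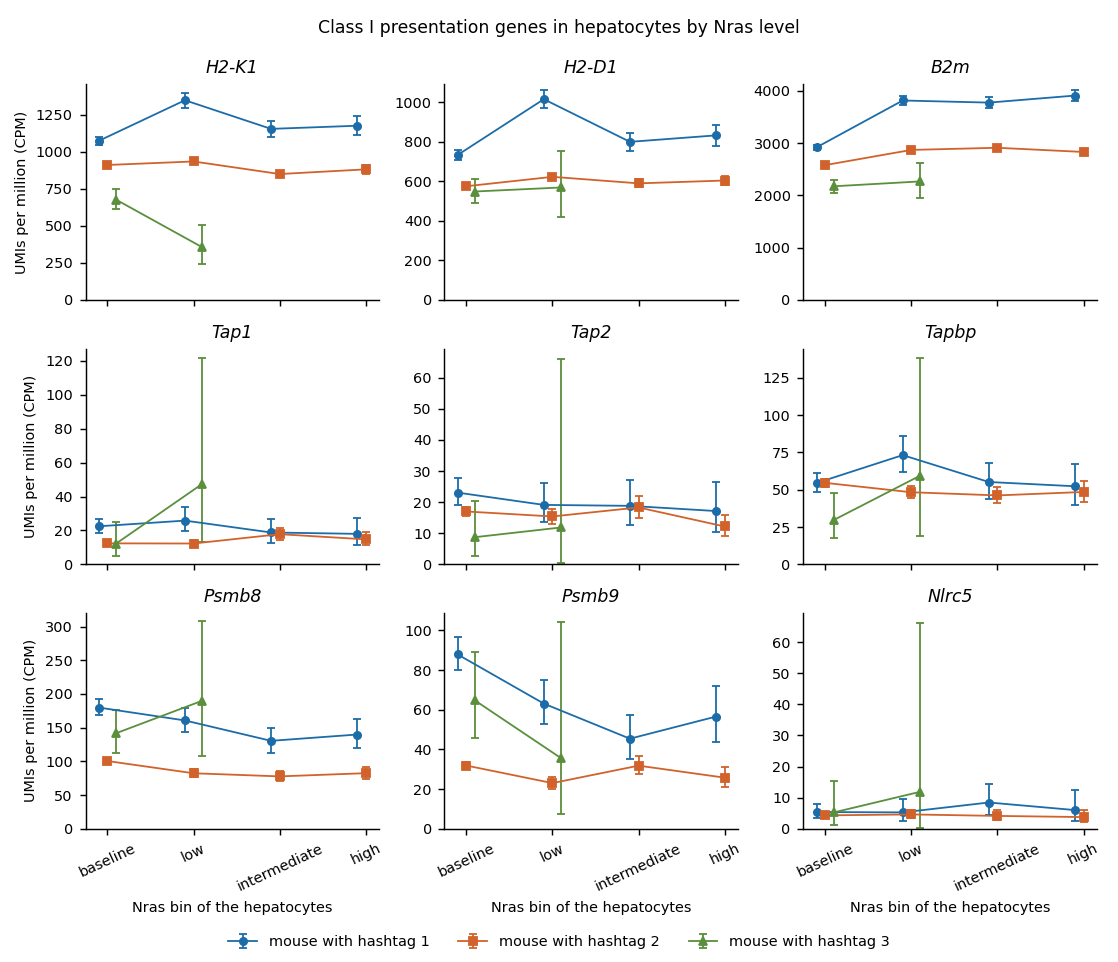
Level of each class I gene in hepatocytes of at least 5000 UMIs (vertical axes, CPM) in the 4 Nras bins (horizontal axes), with a line for each mouse and bars for exact 95% Poisson intervals. Mouse 1 lies above mouse 2 for H2-K1, H2-D1, B2m, Psmb8 and Psmb9 in every bin, and a mouse and bin with under 5 cells is not drawn.

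Between adjacent bins 0 of the 9 genes passed in each of the 3 steps by edgeR. DESeq2, which gave an adjusted p for 8 of the 9 in the first 2 steps and for all 9 in the last, called 0 as well. From baseline to low 4.92% of 10218 genes were called (2.06% higher, 2.86% lower), from low to intermediate 2.06% (0.783% higher, 1.28% lower) and from intermediate to high 0.0%, where 410 genes had an unadjusted p under 0.05 and DESeq2 called 3. Psmb9 had the lowest adjusted p of the 9, from baseline to low, at -0.52 ± 0.18 (adjusted p = 0.125, edgeR), and was the 1 gene of the 9 with an unadjusted p under 0.05 in that step. It passed there with no filter on low counts, where 1 of the 9 was called. In the later steps 0 of the 9 had an unadjusted p under 0.05.

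Other measures moved with the bins. Median UMIs per cell were 20431 in the baseline and 50886 in the high bin of mouse 1, and 39445.5 and 59032 in mouse 2. Malat1, a nuclear RNA, was at 10158 and 17822 CPM in mouse 1 and at 9921 and 15585 in mouse 2, and the 5 hepatocyte markers of the rule made up 7.56% and 4.66% of UMIs in mouse 1 and 10.03% and 4.96% in mouse 2. Immune markers other than Ly6d, 61 genes in sum, were at 126, 185, 16.2 and 48.9 CPM over the bins of mouse 1 and from 13.2 to 47.3 in mouse 2. In mouse 3 they were at 138 CPM in baseline and 273 in low cells. Between 13 and 46 of the 62 immune markers were at 0 in a bin of mice 1 and 2, and 39 and 52 in the baseline and low bins of mouse 3. Ptprc, the pan-leukocyte gene, was at 10.7 CPM in the baseline and 0.857 in the high bin of mouse 1, and at 0.896 and 1.64 in mouse 2, and at 10.5 in the baseline and 71.2 in the low bin of mouse 3. The part of these measures in the class I values was not tested. Ly6d, listed as a marker of plasmacytoid dendritic cells, was seen in 45.7% of hepatocytes and is kept apart for that reason.

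Among 52 further genes of antigen presentation and interferon response, 49 were tested and 12 passed between high and baseline Nras, 6 higher and 6 lower, with a median of -0.12. The share called was near the 23.3% of all genes, so the count is no result about the list, and the genes below are given as single values. Both chains of the interferon gamma receptor were higher. Ifngr1 was at 65.0, 102, 115 and 164 CPM from baseline to high in mouse 1 and at 78.6, 136, 177 and 192 in mouse 2, higher at every step in both (1.28 ± 0.19, adjusted p = 0.000114, edgeR). Ifngr2 was at 26.0 and 53.2 CPM in baseline and high cells of mouse 1 and at 27.8 and 61.6 in mouse 2 (1.10 ± 0.18, adjusted p = 0.000297, edgeR). H2-T23, the non-classical heavy chain Qa-1, was the 1 of 7 tested heavy chains of the list to pass, at 214, 304, 318 and 349 CPM in mouse 1 and 201, 225, 269.7 and 293 in mouse 2 (0.58 ± 0.17, adjusted p = 0.0204, edgeR). Cxcl9, a chemokine induced by interferon gamma, was at 191 and 229.8 CPM in baseline and high cells of mouse 1 and at 31.7 and 176 in mouse 2 (1.74 ± 0.49, adjusted p = 0.0180, edgeR). The guanylate-binding proteins Gbp2 and Gbp3 passed too, but the 2 mice moved in opposite directions.

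Lower in the high bin were Socs3, an inhibitor of cytokine signalling, Irf1, a transcription factor induced by interferon gamma, the GTPase Irgm2 and 3 targets of type I interferon. Socs3 was at 45.9 and 26.6 CPM in baseline and high cells of mouse 1 and at 67.0 and 14.3 in mouse 2 (-1.70 ± 0.31, adjusted p = 0.000780, edgeR). Irf1 was at 23.7 and 12.9 in mouse 1 and at 17.9 and 12.4 in mouse 2 (-0.62 ± 0.21, adjusted p = 0.0418, edgeR), and Irgm2 changed by -1.19 ± 0.26 (adjusted p = 0.00338, edgeR). Among the type I targets, the ubiquitin-like Isg15 was at 93.1 and 31.7 CPM in mouse 1 and at 52.1 and 23.6 in mouse 2 (-1.35 ± 0.31, adjusted p = 0.00401, edgeR), and Ifit1 at 29.8 and 2.57 and at 14.1 and 1.87 (-3.22 ± 0.57, adjusted p = 0.000622, edgeR). Rsad2 was at 12.9 and 0.857 CPM in mouse 1 and at 4.67 and 0.234 in mouse 2, with 1 UMI in each high bin, and mouse 2 was higher in low cells at 10.5. Its fitted value, which rests on those counts, was -4.23 (adjusted p = 0.0109, edgeR). Rsad2 passed in the opposite direction in the split by mVenus (2.76, adjusted p = 0.00205, edgeR) and with Nras quartiles (2.58, adjusted p = 0.0198, edgeR).

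Of the 10 genes called with the same direction in both mice, none kept the call under every setting. Leaving out mouse 1 or mouse 2 leaves 1 sum in the high bin, so a lost call or lower count there cannot be told apart from lost replication. Isg15, Ifngr1, Irgm2, Ifngr2, Irf1 and H2-T23 lost the call in both fits and kept their direction. Without mouse 1 and without mouse 2, Ifngr1 was at 1.10 and 1.19, Ifngr2 at 1.10 and 1.00 and H2-T23 at 0.43 and 0.58. Irf1 was at -0.52 and -0.80, Isg15 at -1.08 and -1.28 and Irgm2 at -0.95 and -1.66. Cxcl9 was at 0.90, Socs3 at -0.83 and Rsad2 at -3.80 without mouse 2, where they lost the call too. Without mouse 3 all 10 passed. Irf1 was also lost with DESeq2 (adjusted p = 0.199), with hashtag counts from the gene table (0.0560), with second-gate barcodes kept (0.0590), in the mVenus split (0.471), without the mouse block (0.132) and with quartiles (0.573), and it turned to 0.45 with the fixed hashtag rule. Cxcl9 was lost with DESeq2 (adjusted p = 0.262) and without the block (0.399), and turned to -0.15 with the fixed hashtag rule. H2-T23 was lost with the fixed hashtag rule (adjusted p = 0.248), in the mVenus split (0.0716) and without the block (0.130). Isg15 was lost with DESeq2 (adjusted p = 0.0576), in the mVenus split (0.154) and after thinning (0.147), and Irgm2 in the mVenus split (0.199) and with quartiles (0.131). Socs3 was lost without the block (adjusted p = 0.0884) and with quartiles (0.0582), Rsad2 with second-gate barcodes kept (0.0902), and Ifit1 with quartiles (0.231) and in the mVenus split, where it turned to 0.72. Among the alternatives run, Ifngr1 and Ifngr2 were lost on leaving out mouse 1 or mouse 2 and under no other. The count of 12 was 8 without mouse 1, 2 without mouse 2 and 13 without mouse 3.

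The constitutive catalytic subunits that Psmb8, Psmb9 and Psmb10 replace did not pass in the main comparison. Psmb5, the counterpart of Psmb8, was at 0.26 ± 0.16 (adjusted p = 0.307), Psmb6, that of Psmb9, at -0.05 ± 0.16 (adjusted p = 0.894) and Psmb7, that of Psmb10, at 0.40 ± 0.17 (adjusted p = 0.106, edgeR). Psmb10 was at -0.15 ± 0.16 (adjusted p = 0.578, edgeR). Psmb7 passed with DESeq2 (0.43, adjusted p = 0.0411), and by edgeR in hepatocytes of at least 10000 UMIs (0.50, adjusted p = 0.00801), in those of at least 20000 (0.60, adjusted p = 0.00117) and without mouse 3 (0.44, adjusted p = 0.0247). It was -0.13 with quartiles and -0.14 after thinning. Psmb5 passed in hepatocytes of at least 20000 UMIs (0.33, adjusted p = 0.0313, edgeR).

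**Figure D2:**
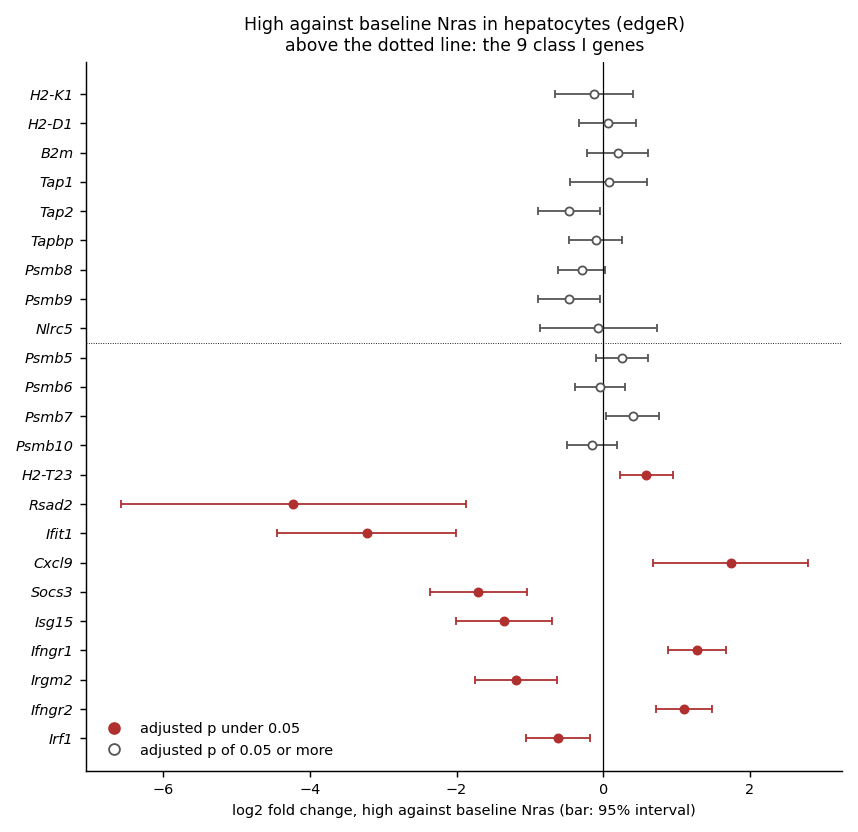
Log2 fold change between high and baseline Nras in hepatocytes (horizontal axis, bars for 95% intervals) for the 9 class I genes, above the dotted line, and for further genes of the list, below it (edgeR, mouse as block). Open points, with an adjusted p of 0.05 or more, include all 9 class I genes, whose estimates lie between -0.47 and 0.19, and filled points passed.

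How the molecules were spread over cells was read after thinning each hepatocyte to 5000 UMIs, which left out 4771 of 8124. B2m was seen in 98.9%, all and 98.4% of the cells of mice 1, 2 and 3. H2-K1 was seen in 82.0% (76.9 to 86.4), 94.95% (93.6 to 96.1) and 65.6% (52.3 to 77.3), and H2-D1 in 83.9%, 87.0% and 62.3%. Mouse 3 was lowest for both heavy chains. Psmb8 was seen in 58.1%, 37.0% and 55.7%, and Psmb9 in 35.6%, 12.2% and 24.6%, with mouse 2 lowest for both. Tapbp was seen in 22.8%, 22.4% and 9.84%, Tap1 in 10.1%, 7.04% and 4.92%, Tap2 in 10.1%, 7.45% and 3.28%, and Nlrc5 in 2.62%, 1.32% and 1.64%. Without thinning, the share over the hashtagged cells was 90.7% in place of 40.2% for Psmb8, 74.5% in place of 19.3% for Tapbp and 16.5% in place of 1.43% for Nlrc5. No gated type lacks class I, so no floor from free RNA could be read for these genes. The 5 hepatocyte markers made up 0.225% to 0.647% of UMIs in the 6 other types compared and 7.396% in hepatocytes.

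In hepatocytes thinned to 20000 UMIs, 166 cells of mouse 1 and 1044 of mouse 2, H2-K1 had a median of 23 UMIs in mouse 1 (5th to 95th percentile 10.25 to 42.75) and of 17 in mouse 2 (8 to 34), and no cell lacked it. B2m had medians of 62 and 51. The variance over cells was 10.6 and 7.89 times the mean for B2m, 4.41 and 3.48 times for H2-K1, and 4.11 and 3.81 times for H2-D1, where counting alone gives 1. Across the cells of a mouse, which share their library and after thinning their depth, H2-K1 and H2-D1 had a Spearman rho of 0.58 in mouse 1 and 0.52 in mouse 2. For H2-K1 and B2m it was 0.44 and 0.42, for H2-D1 and B2m 0.39 and 0.34, and for H2-K1 and Psmb8 0.11 and 0.17. The rho of H2-K1 with Alb was 0.09 and -0.02. Cells of 1 mouse are not replicates, and these values are descriptions.

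By mouse, over all hepatocytes of at least 5000 UMIs, each of the 9 genes was higher in mouse 1 than in mouse 2. H2-K1 was at 1157 (1135 to 1178), 906 (898 to 914) and 703 (644 to 765) CPM in mice 1, 2 and 3, B2m at 3360.4 (3324 to 3397), 2694 (2680.5 to 2708) and 2505 (2394 to 2620.0), and H2-D1 at 817 (799 to 835), 589 (583 to 596) and 564 (512 to 620.4). The intervals of mice 2 and 3 overlapped for H2-D1. The immunoproteasome genes had another order, with mouse 2 lowest: Psmb8 was at 163 (155 to 171), 92.8 (90.2 to 95.4) and 137 (112 to 166) and Psmb9 at 72.2 (67.0 to 77.8), 29.6 (28.2 to 31.1) and 60.5 (44.3 to 80.7). Tap1 was at 22.1, 13.2 and 18.4, Tap2 at 20.9, 16.4 and 7.89, Tapbp at 58.3, 51.9 and 36.8 and Nlrc5 at 5.90, 4.29 and 6.58, the last from 5 UMIs in mouse 3. Mouse 1 is the control under the deposited list and mouse 3 under the methods. Over all these cells the control would then be the highest or the lowest mouse for H2-K1 and B2m. The order of the mice changed with depth. In barcodes of 20000 UMIs or more, H2-K1 was at 1235, 913 and 1029 CPM in mice 1, 2 and 3. B2m was at 3451, 2685 and 3259 there. In barcodes of 10000 to under 20000 UMIs, H2-K1 was at 533, 828 and 619 CPM and B2m at 2736, 3173 and 2339. Mouse 3 had 8 and 7 cells in these classes. Genes of immune cells differed between the mice as well. Over all hepatocytes of at least 5000 UMIs, Cd74, the invariant chain of MHC class II, was at 602, 99.4 and 178 CPM in mice 1, 2 and 3. Irf8, a transcription factor of immune cells, was at 30.7, 7.01 and 9.21. Mouse 2 was lowest for both, as for Psmb8 and Psmb9 but not for H2-K1 and B2m. Endothelial markers in sum were at 57.1, 20.9 and 423 CPM in the baseline Nras cells of mice 1, 2 and 3. In barcodes of 20000 UMIs or more they were at 41.6, 23.4 and 368. The part of immune and endothelial transcripts in the differences between mice was not tested. Genotype, hashtag and the individual mouse cannot be told apart.

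The depth of a barcode went with the levels. From barcodes of 2000 to under 5000 UMIs to those of 20000 or more, H2-K1 went from 284 to 1235 in mouse 1, from 317 to 913 in mouse 2 and from 215 to 1029 in mouse 3 (CPM). H2-D1 went from 224 to 860.2 in mouse 1, from 258 to 593 in mouse 2 and from 212 to 800.3 in mouse 3, and B2m from 1639 to 3451 in mouse 1, from 1899.7 to 2685 in mouse 2 and from 1335 to 3259 in mouse 3. The shallowest barcodes, of 1000 to under 2000 UMIs, read higher than those of 2000 to under 5000 for H2-K1, at 514, 626 and 351 CPM in mice 1, 2 and 3, and for H2-D1, at 514, 402 and 222. The intervals of these classes overlapped in mice 1 and 3 for H2-K1 and in mice 2 and 3 for H2-D1. The heavy and light chains were higher in barcodes of at least 20000 UMIs than in either class under 5000, in every mouse. Psmb8 went from 305 to 144 in mouse 1, from 205 to 90.3 in mouse 2 and from 119 to 101 in mouse 3, and Psmb9 from 129.6 to 59.1 in mouse 1, from 55.9 to 28.5 in mouse 2 and from 88.5 to 31.9 in mouse 3, with intervals that overlap in mouse 3 for both. Between these classes the immunoproteasome genes were not in step: in barcodes of 10000 to under 20000 UMIs Psmb9 reached 221 CPM in mouse 1. In that class of mouse 1 the immune markers without Ly6d summed to 419 CPM, the conventional dendritic list to 189, the mature dendritic list to 167 and Ptprc to 34.5, with 36 of the 62 immune markers at 0. In its deepest class the immune sum was 90.3 CPM, in its class of 2000 to under 5000 it was 210.2, and in the shallowest class it was 404, 939 and 324 in mice 1, 2 and 3. Malat1 went from 3412 to 14111 in mouse 1, from 2095 to 11496 in mouse 2 and from 1289 to 16491 in mouse 3, and mitochondrial UMIs from 2.18% to 9.16% in mouse 1, from 2.50% to 9.14% in mouse 2 and from 4.21% to 8.49% in mouse 3. No test was made, and the part of depth, immune markers, Malat1 and mitochondrial share in the class I levels was not tested. Mouse 3 had 8 cells in the deepest class, which held 344864 UMIs, and 86 in the class of 2000 to under 5000, which held 259930.

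**Figure D3:**
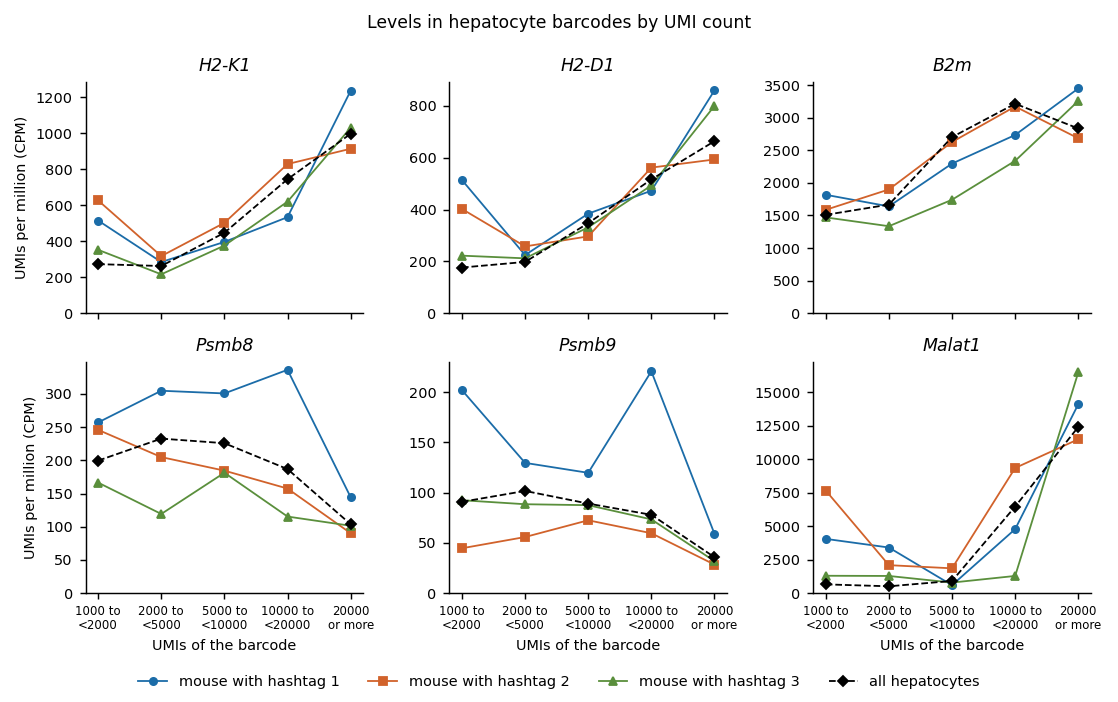
Levels of 5 class I genes and of the nuclear RNA Malat1 (vertical axes, CPM) in hepatocyte barcodes grouped by their UMI count (horizontal axes), with a line for each mouse and a dashed line for all hepatocytes, hashtagged or not. H2-K1, H2-D1, B2m and Malat1 are higher and Psmb8 and Psmb9 lower in barcodes of 20000 UMIs or more than in those of 2000 to under 5000.

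Across cell types, each gated from markers that include none of the 9 genes, H2-K1 and B2m spanned a narrow range. The transporter and immunoproteasome genes spanned a wide one, and H2-D1 and Tapbp lay between. Types with at least 10 cells in each of at least 2 mice were compared with all hepatocytes of at least 1000 UMIs: endothelial cells, T or NK cells and B cells in 3 mice, and macrophages and conventional and mature dendritic cells in mice 1 and 2. Of the barcodes gated as conventional dendritic cells, Xcr1 was seen in 97.9% and Clec9a in 97.4%, against 1.04% for Cd209a. Naaa, Wdfy4 and Itgax were seen in 100%, 94.8% and 89.1%, Flt3 in 66.1% and Zbtb46 in 37.5%. The values of this type are thus those of cells with Xcr1 and Clec9a, and do not cover cells with Cd209a. A filter on low counts left 4234 genes, with 8 of the 9 among them and Nlrc5 left out. In mature dendritic cells 8 of the 8 were higher than in hepatocytes (61.2% of genes called, 29.2% higher and 32.0% lower). In conventional dendritic cells 6 were higher (57.3% of genes called, 28.1% higher and 29.2% lower), in T or NK cells 6 (52.3% of genes called, 23.7% higher and 28.6% lower), in macrophages 5 (38.3% of genes called, 19.8% higher and 18.5% lower) and in endothelial cells 5 (61.4% of genes called, 30.8% higher and 30.6% lower). In B cells 1 was higher and 1 lower (40.9% of genes called, 15.0% higher and 25.9% lower). The median log2 difference of the 8 was 2.91 in mature dendritic cells, 2.33 in conventional dendritic cells, 1.74 in T or NK cells, 1.56 in macrophages, 1.00 in endothelial cells and 0.34 in B cells. Over all genes it was, in the same order, -0.10, -0.14, -0.30, -0.22, 0.07 and -0.77.

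H2-K1 was called higher in T or NK and mature dendritic cells. It was at 1129, 902 and 557 CPM in hepatocytes of mice 1, 2 and 3, at 2246, 1957 and 2469 in T or NK cells and at 2042 and 2075 in mature dendritic cells of mice 1 and 2. These types did not overlap with hepatocytes and did overlap with each other. The differences were 1.06 ± 0.22 (log2, SE; adjusted p = 0.000758, edgeR) in T or NK and 1.35 ± 0.24 (adjusted p = 0.000116, edgeR) in mature dendritic cells. Conventional dendritic cells, at 1059 and 1072, lay within the range of hepatocytes (0.26 ± 0.24, adjusted p = 0.372, edgeR). Endothelial cells at 1785, 1991 and 1683, macrophages at 1777 and 1705 and B cells at 1486, 1822 and 1547 lay above the range of hepatocytes and did not pass, with adjusted p of 0.0828, 0.0615 and 0.243 (edgeR), and endothelial cells overlapped with T or NK cells.

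H2-D1 was called higher than in hepatocytes in each of the 6 types tested. It was at 798, 587 and 450.3 CPM in hepatocytes and at 2558 and 2568 in mature dendritic cells, a difference of 2.19 ± 0.22 (adjusted p = 3.48e-07, edgeR). Below these came macrophages at 2377 and 2397 and endothelial cells at 2244, 2453 and 2153, then T or NK cells at 1897, 2039 and 2196, B cells at 1639, 1586 and 1843 and conventional dendritic cells at 1642 and 1563. Endothelial cells overlapped with macrophages and with T or NK cells, and B cells with conventional dendritic cells. The differences of these types ran from 0.90 ± 0.21 in B cells (adjusted p = 0.00273, edgeR) to 1.58 ± 0.22 in macrophages (adjusted p = 3.16e-05, edgeR). The B cell call was lost without mouse 1 (0.94, adjusted p = 0.108, edgeR) and with no filter on low counts (0.47, adjusted p = 0.246, edgeR).

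B2m, in contrast, was already high in hepatocytes, at 3304, 2689 and 2136 CPM. Mature dendritic cells were at 4908 and 4524 (0.92 ± 0.20, adjusted p = 0.000920, edgeR) and B cells at 2248, 1552 and 2025 (-1.05 ± 0.19, adjusted p = 0.000506, edgeR). B cells were the 1 type in which B2m passed as lower, and the value was -0.48 (adjusted p = 0.0364, edgeR) with scaling by library size. Endothelial cells at 3699.5, 4286 and 3598, macrophages at 3902 and 4038, T or NK cells at 4293, 3277 and 4030.4 and conventional dendritic cells at 2509 and 2162 did not pass.

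The transporter genes were highest in both kinds of dendritic cell. Tap1 was at 21.8, 13.3 and 14.2 CPM in hepatocytes, at 258 and 256 in conventional and at 245 and 213 in mature dendritic cells, differences of 3.91 ± 0.37 and 3.87 ± 0.37 (adjusted p = 2.67e-07 and 2.12e-07, edgeR). Tap2 was at 20.4, 16.4 and 5.32 in hepatocytes, at 209 and 197 in conventional and at 202 and 201 in mature dendritic cells (3.60 ± 0.33 and 3.73 ± 0.33, adjusted p = 1.93e-07 and 1.01e-07, edgeR). T or NK cells followed, with 2.17 ± 0.48 for Tap1 and 2.39 ± 0.44 for Tap2 (adjusted p = 0.00126 and 0.000259, edgeR), where Tap1 rests on 8, 8 and 7 UMIs in mice 1, 2 and 3. In endothelial cells Tap2 was at 104, 108 and 71.0 CPM (2.07 ± 0.35, adjusted p = 9.21e-05, edgeR) and Tap1 at 17.3, 57.1 and 49.8 (0.98 ± 0.41, adjusted p = 0.0486, edgeR). Leaving out mouse 1, 2 or 3 each ended the Tap1 call there (adjusted p = 0.0754, 0.148 and 0.407, edgeR). In macrophages Tap1 passed (1.73 ± 0.56, adjusted p = 0.0224, edgeR) and Tap2 did not (1.31 ± 0.56, adjusted p = 0.0757, edgeR). The Tap1 call there was lost without mouse 1 (1.79) and without mouse 2 (1.70), each of which leaves 1 macrophage sum.

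Tapbp was highest in mature dendritic cells, at 256 and 262 CPM against 57.0, 51.6 and 31.0 in hepatocytes (2.59 ± 0.34, adjusted p = 6.79e-06, edgeR). Conventional dendritic cells were at 155 and 134, macrophages at 168 and 185 and endothelial cells at 121, 152 and 174. All of these passed, with differences of 1.61 ± 0.34, 1.53 ± 0.43 and 1.01 ± 0.35 (adjusted p = 0.000782, 0.00936 and 0.0185, edgeR). T or NK cells at 49.9, 94.3 and 141 did not. The macrophage call was lost without mouse 1 (1.72) and without mouse 2 (1.67), each of which leaves 1 macrophage sum. The endothelial call was lost without mouse 1 (adjusted p = 0.0689, edgeR), without mouse 3 (0.0960) and against hepatocytes of at least 20000 UMIs (0.0728).

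Psmb9 gave the largest difference of the 8 genes, in conventional dendritic cells. It was at 74.5, 29.8 and 70.0 CPM in hepatocytes and at 1064 and 1042 in conventional dendritic cells (4.25 ± 0.36, adjusted p = 1.20e-07, edgeR). Mature dendritic cells were at 821 and 842 (4.05 ± 0.36, adjusted p = 1.18e-07, edgeR), below the conventional ones in both mice. Next came macrophages at 324 and 265 and T or NK cells at 249.6, 471 and 247, which overlap, and then endothelial cells at 234, 152 and 161, whose call was lost without mouse 1 (adjusted p = 0.117, edgeR). B cells, at 76.2, 33.7 and 91.0, overlapped with hepatocytes. Psmb8 had the same leaders, 1085 and 1035 CPM in conventional and 1065 and 1098 in mature dendritic cells, against 168, 93.6 and 136 in hepatocytes (3.05 ± 0.27 and 3.22 ± 0.27, adjusted p = 1.34e-07 and 5.84e-08, edgeR). T or NK cells (2.06 ± 0.25, adjusted p = 4.79e-06) and macrophages (1.64 ± 0.28, adjusted p = 0.000200, edgeR) were higher as well, while endothelial cells at 259.9, 203 and 204 and B cells at 419, 135 and 205 did not pass.

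Nlrc5 was left out of the main comparison of types by the filter on low counts. In mature dendritic cells all 9 genes, Nlrc5 among them, were called with DESeq2 and with no filter on low counts. The same held with no limit on the hepatocyte marker share. It was at 63.1 (50.8 to 77.6) and 56.1 (46.5 to 67.1) CPM in mature dendritic cells of mice 1 and 2, at 31.8 (20.8 to 46.5) and 21.5 (13.8 to 32.0) in conventional dendritic cells, and at 5.80, 4.30 and 5.32 in hepatocytes of mice 1, 2 and 3. The intervals of these 3 types did not overlap within mouse 1 or within mouse 2. B cells had 0 UMIs of Nlrc5 in 104465, which allows up to 28.7 CPM at a floor of 3 UMIs and so does not separate them from hepatocytes.

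**Figure D4:**
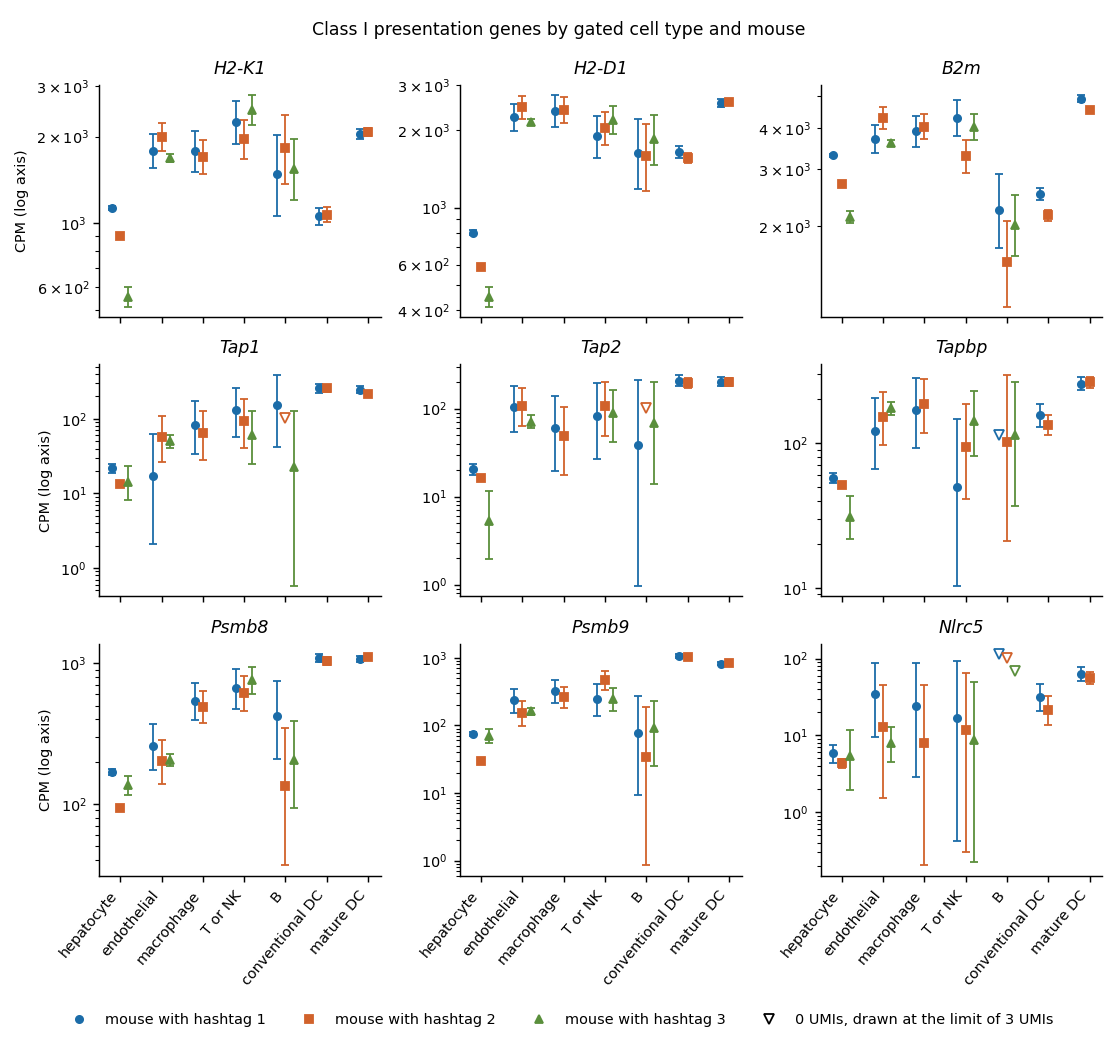
Level of each class I gene (vertical axes, CPM on a log axis that does not start at 0) in 7 gated cell types, with a point for each mouse and bars for exact 95% Poisson intervals. An open triangle marks 0 UMIs and is drawn at the level of 3 UMIs. The dendritic cell points lie above all hepatocyte points for Tap1, Tap2, Tapbp, Psmb8, Psmb9 and Nlrc5, and those of conventional dendritic cells lie among them for H2-K1 and B2m.

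Shares of cells with a UMI at 5000 UMIs a cell, pooled over mice, ran in a like order. Psmb9 was seen in 99.5% of 182 conventional dendritic cells, 94.3% of 353 mature dendritic cells, 57.4% of 155 endothelial cells and 22.4% of 3353 hepatocytes. Tap1 was seen in 68.7%, 59.8%, 21.9% and 5.61% of the same cells, and Nlrc5 in 8.79%, 23.8%, 3.23% and 1.37%. Only 23 macrophages, 8 T or NK cells and 1 B cell were deep enough.

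Scaling bore on these differences, since the types differ in which genes take most UMIs. With library size in place of TMM factors the median over all genes moved by 0.72 in endothelial cells, 0.56 in B cells, 0.38 in macrophages, 0.33 in T or NK cells and -0.18 in mature dendritic cells. The number of class I genes called was then 8 in endothelial cells, 8 in macrophages, 7 in T or NK cells and 4 in B cells, and B2m in endothelial cells turned from -0.12 to 0.61 (adjusted p = 0.00375, edgeR). It was 6 in conventional and 8 in mature dendritic cells. Without mouse 1 the endothelial count was 2 and without mouse 3 it was 3. The macrophage count was 3 without mouse 1 and 3 without mouse 2, from sums of 10 and 19 cells.

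Over the 18 sums of a mouse and a cell type, the gene outside both lists whose log2 level ran closest to the mean of the 9 was Tpm3 (Pearson r 0.963), out of 4824 ranked, and further ones among the 10 closest were Sri (0.960), H2afz (0.956), Ncoa7 (0.944), Tbc1d4 (0.932), Etv6 (0.924), Calm3 (0.922), Arpc1b (0.918) and Serpinb9 (0.914). Among the 9 themselves the closest pairs were Psmb8 with Psmb9 (0.942), Tap1 with Tap2 (0.909), B2m with Nlrc5 (0.880) and H2-K1 with H2-D1 (0.879), and the loosest was Tap1 with Tapbp (0.185). The sums share mice, a pool and marker gates, so these values are a description.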

How the data were processed

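One pool of 3 livers was measured with a gene expression and a hashtag library (10x 3′ v3 chemistry). The authors deposited raw UMI counts per gene and barcode and raw UMI counts per hashtag and barcode, without normalization. Reads had been aligned to mm10 with Cell Ranger (2.1.1 in the submitters' notes, 3.0.2 in the header of the gene table), and hashtag tags counted with no mismatch.

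Limits on barcodes and the hepatocyte rule are given above. A cell type needed at least 3 of its markers and 0.2% of UMIs. Mice were called with HTODemux (Seurat 5.3.0, quantile 0.99), which also removed barcodes with more than 1 hashtag, and no other doublet caller was run. UMIs were summed per mouse and Nras bin (at least 5 cells) or cell type (at least 10 cells). Nras, mVenus and hashtag counts were left out of the sums. The sums were tested with edgeR 4.0.16 (quasi-likelihood F-test, TMM factors, filterByExpr, Benjamini-Hochberg adjustment over all genes tested) in R 4.3.3, with the mouse as a block because sums of 1 mouse come from the same animal. DESeq2 1.42.0 was an alternative, as were other depth limits, gates, bins and hashtag rules. The fixed hashtag rule took barcodes with at least 10 hashtag UMIs, at least 80% of them from 1 hashtag, and the mVenus split set cells with at least 1 mVenus UMI against the rest. The code was tested on simulated data with known changes. For high against baseline Nras it recovered 93% of 2-fold and 100% of 4-fold changes. Changes were placed only in genes above a minimum mean CPM, which Nlrc5 did not reach in hepatocytes and which Tap1 and Tap2 lay near. These shares therefore do not cover genes as rarely counted as Nlrc5. For endothelial cells against hepatocytes it recovered 17% and 66%. A gene that did not pass between these types may thus still differ by 2-fold. Mice are the replicates, and all 3 shared a pool.

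All 9 genes were reported throughout. Of the 52 further genes, those past the threshold with the same direction in both mice were named (at most the 12 largest), with Psmb5, Psmb6, Psmb7 and Psmb10 always, and the 10 genes outside both lists whose log2 CPM had the highest Pearson r with the mean of the 9, of which 1 is not reported here. Gbp2, Gbp3, Cd74, Irf8 and H2-Q10 were named after their values were seen. The members and lists were chosen with earlier results of these data known. Promoters are from RefSeq (GRCm38.p6) and gene coordinates from GENCODE M21.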

Additional observations from a re-analysis of the deposited data

Results flagged for a closer look

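Values are shown here where the mouse that is the control under a pairing of hashtags moved against both others, or where the signal lies in barcodes that no comparison used. None of these differences between mice was tested, since the control is a single mouse under either pairing.

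With mouse 3 as the control, as in the methods, the log2 ratio of low to baseline Nras for H2-K1 was 0.33 in mouse 1, 0.0370 in mouse 2 and -0.93 in mouse 3. For Tap2 it was -0.27 in mouse 1, -0.14 in mouse 2 and 0.44 in mouse 3, with 5 UMIs in baseline and 1 in low cells of mouse 3. For Psmb8 it was -0.16 in mouse 1, -0.29 in mouse 2 and 0.42 in mouse 3. The low bin of mouse 3 held 12 cells, with a median of 6016.5 UMIs against 52781 in mouse 1.

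With mouse 1 as the control, as in the deposited list, the ratio of low to baseline for Nlrc5 was -0.0298 in mouse 1, 0.10 in mouse 2 and 1.18 in mouse 3, the last from 1 UMI in low cells. For Tap1 in endothelial cells against hepatocytes it was -0.33 in mouse 1, 2.11 in mouse 2 and 1.81 in mouse 3, with 2 UMIs in mouse 1. For Tapbp in T or NK cells against hepatocytes it was -0.19 in mouse 1, 0.87 in mouse 2 and 2.19 in mouse 3.

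The 385 barcodes in the hepatocyte gate and another gate held 6282 CPM of the 9 genes in sum, and the 379 in no gate held 5890.6, against 4433 in hepatocytes. Psmb9 alone was at 223 and 381 CPM in these barcodes and at 48.2 in hepatocytes. Their median depths were 2328, 9838 and 3812.5 UMIs.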

How the results depend on the processing

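Of the class I genes, 0 were called between high and baseline Nras. The count was 2 with the fixed hashtag rule, 2 with second-gate barcodes kept, 1 in the mVenus split, 1 with no filter on low counts, 2 with Nras quartiles, 1 with at least 10000 UMIs and 1 with at least 20000, the last chosen after seeing the data, as were library size scaling and hashtag counts from the gene table. Over adjacent bins the count of 0 became 1 with no filter. The mouse block pairs sums of the same animal. Without the replicate block 1394 genes were called in place of 2382, and 6 of the 52 listed genes in place of 12. The corresponding counts were 1545 and 7 in the mVenus split and 768 and 5 after thinning. Leaving out mice gave 361 genes (without mouse 2) to 2819, with 880 without mouse 1, and 2 to 13 listed genes. Across types, library size scaling gave 4 calls in B cells in place of 2, 8 in endothelial cells in place of 5 and 8 in macrophages in place of 5. B cells had 1 with no filter and endothelial cells 3 against hepatocytes of at least 20000 UMIs. Leaving out mice gave 1 to 2 in B cells, 2 to 4 in endothelial cells and 3 to 5 in macrophages. Of the 9 genes, 3 were seen in at least 50% of thinned hepatocytes and 6 without thinning. Where leaving out a mouse left 1 sum in a group, that sum was assumed to vary like the others. The cause of these changes was not tested.

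Signs turned for the following log2 values. Between high and baseline Nras they were H2-K1 0.0279, H2-D1 -0.0303, Nlrc5 0.0126, Rsad2 2.76 and Ifit1 0.72 with the mVenus split. They were H2-K1 0.45, Tapbp 0.14, Nlrc5 0.37, Rsad2 2.58, Psmb5 -0.0872 and Psmb7 -0.13 with Nras quartiles. They were H2-K1 0.18, Tapbp 0.60 and Psmb7 -0.14 with thinning to 5000 UMIs. They were H2-K1 0.25, Tap1 -0.00619 and Tapbp 0.0398 with no mouse block. They were H2-D1 -0.0791, B2m -0.17, Cxcl9 -0.15 and Irf1 0.45 with the fixed hashtag rule. They were Tap1 -0.0832 with second-gate barcodes kept. They were H2-K1 0.00433 with at least 10000 UMIs. Leaving out mice gave -0.39 to 0.0394 for H2-K1, -0.0565 to 0.13 for H2-D1, -0.00996 to 0.29 for B2m, -0.19 to 0.29 for Tap1 and -0.22 to 0.21 for Nlrc5. Against hepatocytes values were Tapbp in B cells -0.13 with the fixed hashtag rule. Values were Tapbp in B cells -0.0765 and B2m in endothelial cells 0.0165 with marker gates at 0.5%. Values were Tapbp in B cells -0.24, Psmb9 in B cells 0.38 and B2m in T or NK cells -0.00191 with hepatocytes of at least 20000 UMIs. Values were Psmb9 in B cells 0.30 and B2m in endothelial cells 0.61 with library size scaling. Values were H2-K1 in B cells -0.0844, Tapbp in B cells -0.31, Psmb8 in B cells -0.0912 and B2m in T or NK cells -0.16 with no filter on low counts. Values were Tapbp in B cells -0.22 and Psmb9 in B cells 0.38 with no limit on the hepatocyte marker share. Values were B2m in endothelial cells 0.0660 with DESeq2. Leaving out mice gave in B cells -0.77 to 1.64 for Tap1, -0.62 to 1.77 for Tap2, -0.63 to 0.56 for Tapbp and -0.16 to 0.58 for Psmb8, -0.0153 to 0.58 for H2-K1 in conventional dendritic cells, and for B2m -0.18 to 0.0355 in endothelial cells, -0.0197 to 0.39 in macrophages and -0.11 to 0.36 in T or NK cells. Over all alternatives, 120 values of class I genes by Nras kept direction and side of the threshold, 10 newly passed and 20 turned. By type 558 kept both, 16 newly passed, 19 no longer passed and 23 turned. Conventional dendritic cells with gates at 0.5% could not be fitted, and the mVenus split has no adjacent bins. Few UMIs limit Nlrc5, Tap1 and Tap2, and the high bin rests on 2 mice.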

Other observations

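One heavy chain outside the 9 genes was higher in hepatocytes than in the 6 other types compared, in every mouse. H2-Q10, a secreted class I heavy chain made by the liver, was at 1027, 1114 and 636 CPM in hepatocytes of mice 1, 2 and 3 and at 69.3, 63.4 and 88.3 in endothelial cells, 199.7, 70.7 and 106 in T or NK cells and 64.5 and 49.6 in mature dendritic cells of mice 1 and 2. In hepatocytes it was at 1048, 1072, 1075 and 976 CPM from baseline to high Nras in mouse 1 and at 1185, 1128, 938 and 847 in mouse 2 (-0.30 ± 0.18, adjusted p = 0.270, edgeR). Across cells its Spearman rho with H2-K1 was 0.08 in mouse 1 and -0.09 in mouse 2. Reads of H2-Q genes may be shared with near-identical copies, and this was not examined for H2-Q10.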
